A study of Mus musculus with 8 samples.

Results

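The genes described here are 44 members of the RNA splicing machinery, measured by RNA sequencing in cultured mouse cells that give rise to red blood cells (erythroid progenitors). They were taken from a list of heterogeneous nuclear ribonucleoprotein (hnRNP), serine/arginine-rich (SR) protein, small nuclear ribonucleoprotein (snRNP) and spliceosome genes, from which Hnrnpu and its paralogs were left out. All 44 matched 1 of the 37620 gene identifiers counted, had counts in all 8 libraries and passed the filter on low counts, which left 15355 genes to test. By function they were 10 hnRNPs of the A/B, C and D type with related proteins, 4 of the F/H type, 3 with KH domains, 6 of the I/L, M, R and Q type, 10 SR proteins, 3 SR-like regulators and 8 snRNP, U2AF and spliceosome core proteins.

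The 8 libraries came from C57BL/6 fetal liver at stage E14.5 of embryonic life, and all cells were purified with magnetic beads, transduced, and grown for 24 h with erythropoietin, the hormone that drives red cell formation. In the Bloodlinc knockdown, hairpins 1 and 2 against the long noncoding RNA Bloodlinc (libraries Bloodlinc_sh1 and Bloodlinc_sh2) are set against 1 control hairpin library (Bloodlinc_shCTL). In the hnRNPU knockdown, 2 hairpins against hnRNPU, a nuclear RNA-binding protein (hnRNPU_sh1 and hnRNPU_sh2), are set against a separate control hairpin library (hnRNPU_shCTL). In the overexpression pair, 1 library with a Bloodlinc vector (Bloodlinc_vector) is set against 1 with the empty vector (Empty_vector). The 2 hairpins of a target are the only repeats, and nothing says that they came from separate animals. The p-values then rest only on the spread between these libraries, which may be technical and which the fit largely shares across genes.

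As background, splicing removes introns from new transcripts. The U1 snRNP recognises the start of an intron, the U2AF proteins and the U2 snRNP with its SF3 subunits recognise its end and branch point, and Prpf8 sits at the catalytic centre. SR proteins mostly favour the use of nearby exons and hnRNPs often oppose it, so that their balance sets which exons are kept. In maturing red cells such a change of exon choice is known for the membrane skeleton protein 4.1R, and mutations of the human counterparts of Sf3b1, U2af1 and Srsf2 are found in myelodysplastic syndromes, in which red cell formation fails.

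Depth differed between libraries. In 6 libraries the counts in genes came to 23682993 to 34540691, but hnRNPU_sh1 and hnRNPU_sh2 held 2931627 and 2612916, with 89.7% and 86.6% of uniquely placed counts outside genes (21.7 to 30.1% in the others). The members summed to 190179 to 371277 counts in those 6 libraries and to 8242 and 15305 in the 2 hnRNPU hairpin libraries, where the lowest member count was 19 (Ptbp2, in hnRNPU_sh1). Within their own comparisons the targets followed their labels without passing the test: Hnrnpu was at 588 CPM (counts scaled to the library's size) in hnRNPU_shCTL and at 325 and 373 CPM with its hairpins (log2 fold change -0.75, SE 0.58, edgeR adjusted p = 0.73). Between arms the check is weaker, since Hnrnpu was lower still in Bloodlinc_shCTL, Bloodlinc_sh1 and Bloodlinc_sh2, at 290, 294 and 214 CPM. Bloodlinc was at 4.46 CPM in Bloodlinc_shCTL, at 2.19 and 1.75 CPM with its hairpins (edgeR adjusted p = 1), and at 1.26 and 5.46 CPM in Empty_vector and Bloodlinc_vector. Empty_vector was thus below both Bloodlinc hairpin libraries. Bloodlinc was also lower with the hnRNPU hairpins, at 1.18 and 3.15 CPM (2 and 8 counts) against 4.355 CPM in hnRNPU_shCTL. Of the 12 erythroid defining genes none was at 0 in any library.

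Level per length was compared between members as CPM per kilobase of merged exons, in the 3 control libraries (the 2 control hairpins and the empty vector, which are separate arms and not repeats of 1 group). The members spanned 86.9-fold by this measure. Srsf1, an SR protein that promotes exon recognition and also acts in RNA export, had the highest mean at 140 ± 61.9 CPM per kb (SD over the 3 controls). Hnrnpab, an hnRNP that binds single-stranded nucleic acids, followed at 127 ± 36.4, Hnrnpa2b1, an A/B type splicing repressor, at 102 ± 18.03, Rbm39, a U2AF-related splicing factor, at 89.9 ± 68.3, and Hnrnpk, a KH-domain protein that binds C-rich RNA, at 88.5 ± 4.47 CPM per kb. The first places differ between controls. Srsf1 was at 211 CPM per kb in Bloodlinc_shCTL, 116 in hnRNPU_shCTL and 94.5 in Empty_vector, and Hnrnpab at 85.5, 152 and 144, so that Hnrnpab was the higher in the latter 2. Rbm39 was at 169, 53.0 and 47.9 CPM per kb, so that its place rests on Bloodlinc_shCTL. Most of this order was within the spread between the 3 controls: in 39 of the 43 neighbouring pairs the gap was smaller than the larger of the pair's SDs. That spread holds differences between arms and is not an error of repeats, and the genes of a pair share the same libraries. The exceptions were the steps from Srsf6 to Prpf8, from Hnrnpl to Hnrnpdl, from Tra2b to Srsf11 and from Hnrnph3 to Ptbp2.

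At the low end were Ptbp2, the PTB protein typical of developing neurons, at 1.615 ± 1.08 CPM per kb, and Hnrnph3 at 5.22 ± 1.34. Within classes the highest and lowest members were Hnrnpab and Hnrnpa3 (6.56 ± 2.74) among the A/B, C and D type, Hnrnph1 (44.4 ± 4.69) and Hnrnph3 in the F/H type, and Hnrnpk and Pcbp2 (9.39 ± 1.67) among KH-domain hnRNPs. They were Ptbp1 (58.8 ± 15.3) and Ptbp2 in the I/L, M, R and Q type, Srsf1 and Srsf2 (9.66 ± 2.97) among SR proteins, Rbm39 and Tra2b (17.6 ± 1.09) among SR-like regulators, and Snrpb (65.6 ± 4.56), a core ring protein of the snRNPs, and Sf3a1 (11.3 ± 4.33) in the core. The 3 controls lay within 2-fold of each other for 30 members. Hnrnpk, Snrpb and Hnrnpl had small spreads, while Rbm39, Srsf1 and Ptbp2 had large ones.

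**Figure D1:**
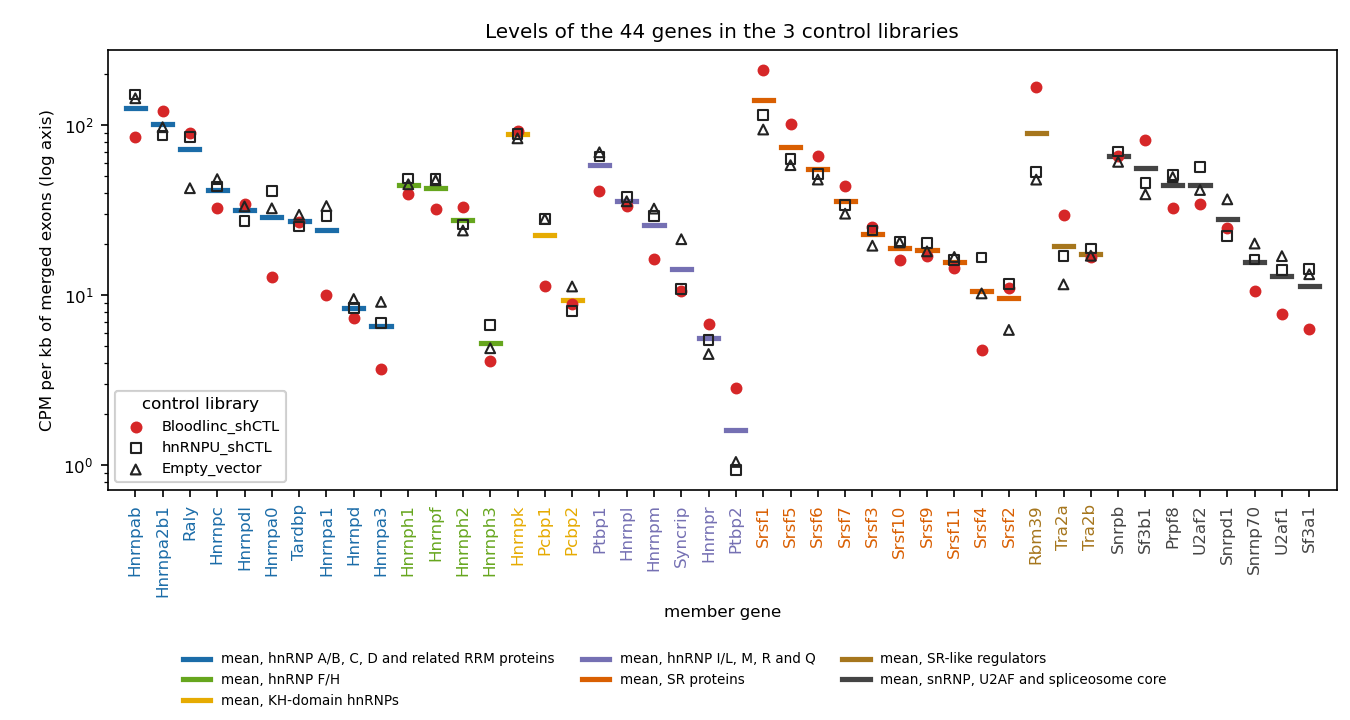
Level of each of the 44 genes per kilobase of merged exons (CPM per kb, log axis) in the 3 control libraries, with each gene's mean as a bar coloured by class. Filled red circles (Bloodlinc_shCTL) lie apart from the open symbols for Rbm39, Ptbp2, Hnrnpa0, Hnrnpa1 and Srsf4, while for Hnrnpk all 3 lie together near 88.5.

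Over the members as a whole, the control libraries differed from each other by more than the overexpression pair did. Between the 2 control hairpin libraries 7 members were at least 2-fold apart, against 32.8% of all genes tested. Rbm39 and Ptbp2 were lower in hnRNPU_shCTL, and Srsf4, Hnrnpa0, Hnrnpa1, Pcbp1 and Sf3a1 were higher. Between Empty_vector and Bloodlinc_shCTL 14 members were at least 2-fold apart (50.7% of all genes), and between Empty_vector and hnRNPU_shCTL none was (26.1% of all genes). The 3 libraries of the Bloodlinc knockdown lay together on 1 side of the other 5 for 11 members and overlapped them for 33. That is no more than over all genes, of which 30.6% were so placed, and the members below are given for their levels.

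Rbm39 was at 1172 CPM in Bloodlinc_shCTL, 1083 in Bloodlinc_sh1 and 923 in Bloodlinc_sh2, and at 333 CPM in Empty_vector, 358 in Bloodlinc_vector, 368 in hnRNPU_shCTL, 414 in hnRNPU_sh1 and 303 in hnRNPU_sh2. All 3 libraries of the Bloodlinc knockdown, control included, were above all others. Srsf5, Srsf6, Sf3b1 and Ptbp2 had the same order. Hnrnpa1, a splicing repressor of the A/B type, had the opposite one, with 31.7, 28.3 and 32.9 CPM in Bloodlinc_shCTL, Bloodlinc_sh1 and Bloodlinc_sh2, and 106 CPM in Empty_vector, 97.7 in Bloodlinc_vector, 92.2 in hnRNPU_shCTL, 46.7 in hnRNPU_sh1 and 57.9 in hnRNPU_sh2. Hnrnpa0, Hnrnpa3, Hnrnph3, Hnrnpm and Srsf4 were likewise below all other libraries in these 3. Markers of granulocytes, white blood cells that share the fetal liver, moved with the same split. The 10 genes of that list summed to 42.5 to 102 CPM in these 3 libraries and to 957 to 9348 CPM in the other 5. Macrophage, mast cell, and endothelial and stromal markers did so too, at 31.6 to 50.38, 7.41 to 12.35 and 2.98 to 4.83 CPM in these 3. In the other 5 they were at 58.95 to 1548, 15.92 to 30.73 and 9.8 to 21.28 CPM, with some genes at 0. The sums of erythroid, megakaryocyte, lymphoid and hepatocyte markers overlapped between the 2 sets of libraries. The part of all these markers in the result was not tested. Neither the labels nor the files give a date or batch, so that the knockdown arm and any batch of its 3 libraries cannot be told apart.

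**Figure D2:**
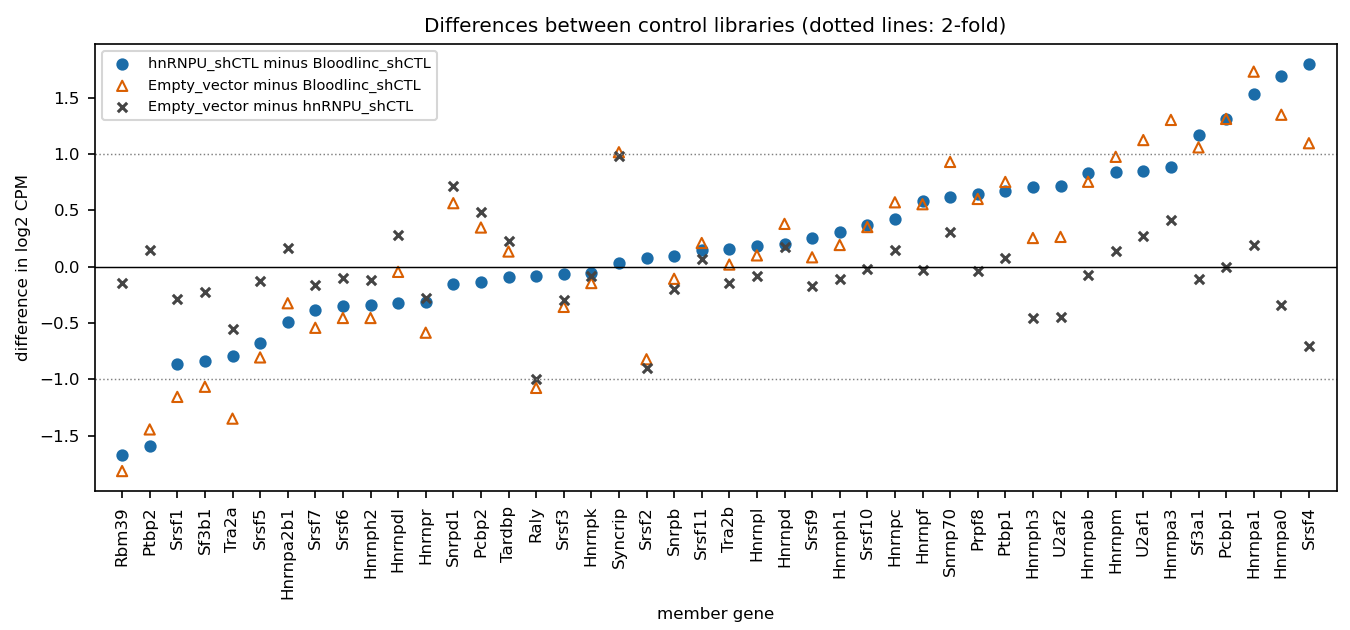
Difference in log2 CPM between pairs of control libraries for each of the 44 genes, 1 point per pair and gene, with dotted lines at 2-fold. Differences from Bloodlinc_shCTL run from -1.82 (Rbm39) to 1.80 (Srsf4), while Empty_vector and hnRNPU_shCTL lie within 2-fold for every gene.

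The question put to both knockdowns is whether loss of Bloodlinc, or of its reported partner hnRNPU, goes with changed levels of the splicing machinery. None of the 44 members passed in either (edgeR's quasi-likelihood test, Benjamini-Hochberg over all genes tested). The background share of genes that passed was 0.124% in the Bloodlinc knockdown and 0.879% in the hnRNPU knockdown. The smallest edgeR adjusted p of a member was 1 in the Bloodlinc knockdown and 0.307 in the hnRNPU knockdown. Without adjustment, 0 members and 2 members (Snrpb and Ptbp1) were under 0.05, against 3.99% and 9.89% of all genes. By DESeq2 none passed in either (background 0.0326% and 0.651%), with 0 and 1 under 0.05 without adjustment, against 2.62% and 8.08% of all genes. The SE of a member's log2 fold change was 0.53 to 0.61 in the first and 0.53 to 0.62 in the second, so that a 2-fold change is less than 2 SEs. In bulk RNA, fewer cells of a type and less RNA per cell cannot be told apart.

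Below the threshold, most members had lower values with the hairpins, more so in the hnRNPU knockdown. The fitted log2 fold change was below 0 for 38 of 44 members in the Bloodlinc knockdown, with a median of -0.23 against 0.06 over all genes tested and -0.08 over the 5994 genes within the members' range of control CPM (58.3% of which were below 0). Both hairpin libraries were below the control for 29 members and above it for 2 (Ptbp2 and Prpf8), against 30.7% and 31.5% of all genes, and against 39.1% below among genes within the members' range of control CPM. Hairpin 2 was the lower one, with a member median of -0.42 against -0.12 for hairpin 1. In the hnRNPU knockdown 42 of 44 members were below 0, with a median of -0.64 against -0.09 over all genes and -0.37 over the genes within that range (70% of which were below 0). Both hairpin libraries were below the control for 39 members and above it for 2 (Ptbp2 and Pcbp2), against 42.3% and 28.6% of all genes, and against 60.2% below among genes within the members' range of control CPM. Here hairpin 1 was the lower one, with a member median of -0.94 against -0.47 for hairpin 2. With DESeq2's size factors the median of all genes in the hnRNPU knockdown moved from -0.09 to 0.03 and the member median to -0.50, and 39 members were then below 0.

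On the scaled library sizes, the members' summed level showed the same order of libraries. It was 9747 CPM in Bloodlinc_shCTL, 8956 in Bloodlinc_sh1 and 6911 in Bloodlinc_sh2. It was 8476 CPM in hnRNPU_shCTL, 4872 in hnRNPU_sh1 and 6029 in hnRNPU_sh2, and 8118 and 8110 CPM in Empty_vector and Bloodlinc_vector. The 2 hnRNPU hairpin libraries had the lowest sums of the 8, and the overexpression pair was level. Abundant members weigh most in such sums, as Srsf1 did with 1203 CPM in Bloodlinc_shCTL, 1019 in Bloodlinc_sh1 and 562 in Bloodlinc_sh2. Scaled CPM do not add up to the same total in each library: over all genes tested it was 886800 in hnRNPU_shCTL, 1732000 in hnRNPU_sh1 and 1029000 in hnRNPU_sh2. By plain share of counts in genes, members took 0.8%, 0.863% and 0.797% in Bloodlinc_shCTL, Bloodlinc_sh1 and Bloodlinc_sh2, where Bloodlinc_sh1 was not below its control. They took 0.955%, 0.281% and 0.586% in hnRNPU_shCTL, hnRNPU_sh1 and hnRNPU_sh2, so the size of the drop depends on the scaling. Other features of these libraries moved with the sums. Identifiers without an entry in the annotation took 32.9% and 23.1% of gene counts in hnRNPU_sh1 and hnRNPU_sh2 against 0.695 to 1.45% elsewhere. The granulocyte list went from 1636 CPM to 9348 and 3483 CPM in sum, with none of its 10 genes at 0 in any library and 2 of them (Ltf and Ngp, named after their values were seen) passing the test. The macrophage list went from 237 to 1548 and 474 CPM, with 5 and 3 of its 10 genes at 0 in the hairpin libraries (C1qa, C1qc and Cd163 in both) and Lyz2, which granulocytes also express, as most of the sum. The erythroid list went from 65170 to 106800 and 57600 CPM, of which the globin gene Hbb-bs alone was 28360, 53840 and 26840 CPM. Its 12 genes were split, with 6 below 0 and 6 above (median log2 fold change 0.003), and none passed. With identifiers lacking an annotation entry and the mitochondrial ribosomal RNAs left out and the scaling repeated, the member median in the hnRNPU knockdown was -0.65. In the Bloodlinc knockdown the erythroid list went from 85740 to 49190 and 42280 CPM, with 12 of 12 genes below 0 (median log2 fold change -0.85), and the granulocyte list from 102 to 42.5 and 54.1 CPM, with 9 of 10 below 0 (median -1.19), and none of either passed. The part of the marker genes in the members' lower values was not tested.

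The knockdown values were set beside the difference between the 2 control hairpin libraries. In the Bloodlinc knockdown the mean of the hairpin libraries was nearer to its own control than the other control hairpin library was for 31 members (66.6% of all genes), and in the hnRNPU knockdown for 17 (48.9% of all genes). With the control hairpin library of the other knockdown in place of its own, Hnrnpa0, Hnrnpa1 and Srsf4 fell and Ptbp2 rose in the Bloodlinc knockdown (edgeR adjusted p = 0.00539, 0.0338, 0.00549 and 0.0208, against a background of 6.79% of all genes), and Tra2a and Rbm39 fell in the hnRNPU knockdown (edgeR adjusted p = 0.0336 and 0.0308, against 15.2%). Both hnRNPU hairpin libraries were below all 6 other libraries for 13 members, against 17.5% of all genes.

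**Figure D3:**
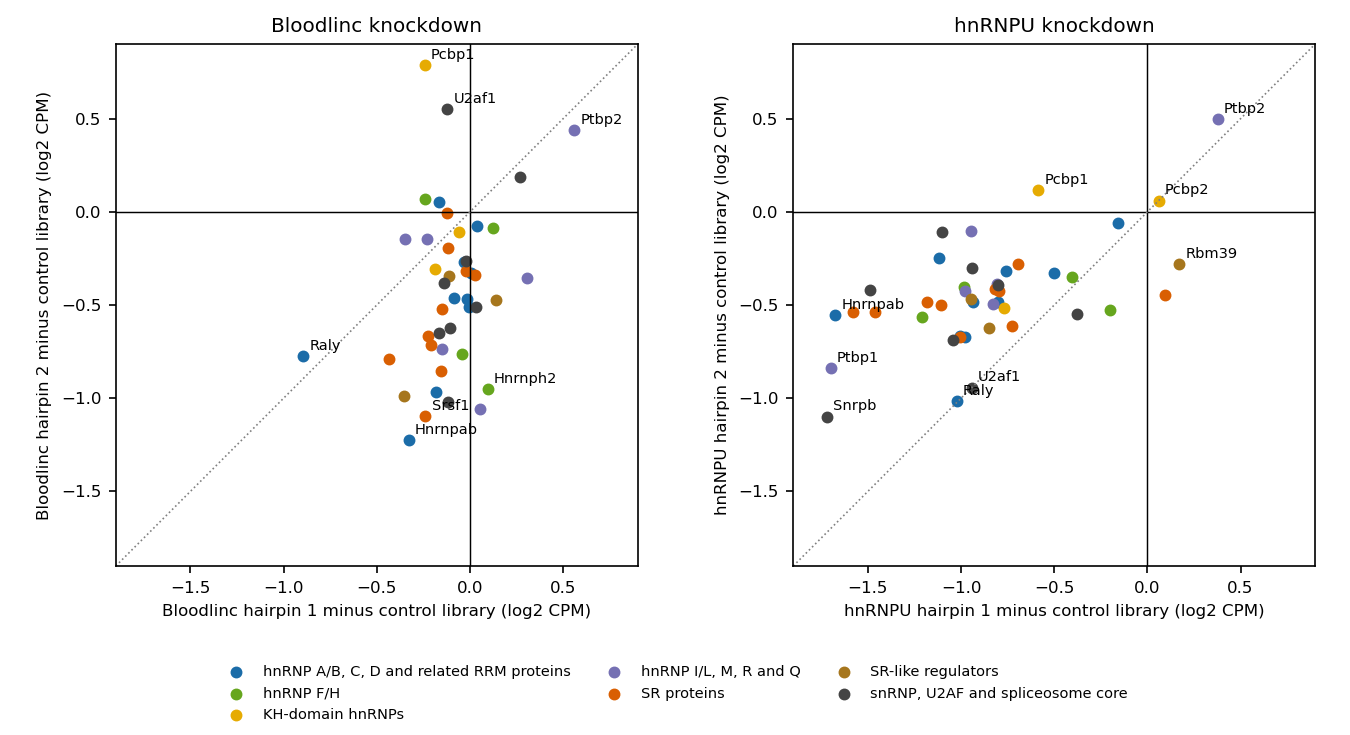
Difference in log2 CPM from the control library with hairpin 1 (horizontal) and hairpin 2 (vertical) for the 44 genes, coloured by class, in the Bloodlinc knockdown (left) and the hnRNPU knockdown (right). Both axes share 1 control library, so that agreement along the dotted line is in part built in. Ptbp2 lies above 0 with both hairpins in both panels, and Raly near -0.83 on the left and -1.02 on the right.

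Upstream sequence is shown for 4 members named in these comparisons whose window holds no annotated exon: Hnrnpab and Tra2a, among the lowest in the Bloodlinc knockdown, and Rbm39 and Prpf8, among the highest in the hnRNPU and Bloodlinc knockdowns. Each is the 250 bases before the start of the gene, in its own 5′ to 3′ direction, from RefSeq's table on build GRCm38.p6, in which 41 of the 44 members had an entry (Snrpb, Snrpd1 and U2af2 had none). Capitals mark matches to the letters CCAAT, the box bound by NF-Y, or to GGGCGG, the GC box bound by Sp factors. Both strands were searched, so that a match on the other strand reads as the reverse complement. No match to TATAAA or AGATAA, the GATA factor motif of erythroid genes, lay in these 4 windows. The windows are chr11:51606882-51607131 on the minus strand for Hnrnpab, chr6:49264053-49264302 on the minus strand for Tra2a, chr2:156180239-156180488 on the minus strand for Rbm39 and chr11:75486527-75486776 on the plus strand for Prpf8.
Hnrnpab: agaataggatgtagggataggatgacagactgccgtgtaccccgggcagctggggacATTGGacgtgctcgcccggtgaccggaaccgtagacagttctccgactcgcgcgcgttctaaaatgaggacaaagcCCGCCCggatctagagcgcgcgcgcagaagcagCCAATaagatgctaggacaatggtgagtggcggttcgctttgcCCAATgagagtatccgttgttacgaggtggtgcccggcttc
Tra2a: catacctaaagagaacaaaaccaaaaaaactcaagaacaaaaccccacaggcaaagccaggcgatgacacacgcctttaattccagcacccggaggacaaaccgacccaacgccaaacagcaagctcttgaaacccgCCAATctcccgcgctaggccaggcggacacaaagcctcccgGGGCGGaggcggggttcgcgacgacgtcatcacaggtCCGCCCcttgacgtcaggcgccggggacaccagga
Rbm39: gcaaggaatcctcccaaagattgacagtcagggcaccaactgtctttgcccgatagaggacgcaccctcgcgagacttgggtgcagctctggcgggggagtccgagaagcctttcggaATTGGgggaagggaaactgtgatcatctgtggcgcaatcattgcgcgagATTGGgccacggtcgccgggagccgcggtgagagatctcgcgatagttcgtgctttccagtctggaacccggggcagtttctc
Prpf8: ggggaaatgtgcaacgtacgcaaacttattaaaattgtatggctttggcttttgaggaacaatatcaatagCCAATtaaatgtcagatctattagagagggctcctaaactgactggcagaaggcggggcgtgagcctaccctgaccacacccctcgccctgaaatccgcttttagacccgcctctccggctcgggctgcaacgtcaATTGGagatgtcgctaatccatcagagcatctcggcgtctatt
The letters CCAAT were found in 19 of the 41 member windows (46.3%) against 33.9% of all 32851 windows of this length, and GGGCGG in 31 (75.6%) against 32.7%. TATAAA was found in 3 member windows (7.32% against 12.4%) and AGATAA in 2 (4.88% against 9.99%). The median GC content was 63.6% in member windows and 52.4% in all windows. Of the 41 member windows 14 hold no annotated exon base, and the rest are in part or wholly exon sequence. A match is a description of the letters and not a bound site, and the 4 motifs may overlap one another.

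Among the hnRNPs of the A/B, C and D type and related proteins, all 10 members had fitted values below 0 in both knockdowns and none passed. Raly, an hnRNP C relative, was at 296 CPM in Bloodlinc_shCTL, 159.5 in Bloodlinc_sh1 and 173 in Bloodlinc_sh2, and at 280.2 CPM in hnRNPU_shCTL, 138 in hnRNPU_sh1 and 139 in hnRNPU_sh2. In both knockdowns the 2 hairpin libraries lay close together and well below their control. It was also low without any hairpin, at 140.4 and 150.2 CPM in Empty_vector and Bloodlinc_vector, so that both control hairpin libraries stood above the other 6. Its log2 fold change was -0.83 (SE 0.55, edgeR adjusted p = 1) in the Bloodlinc knockdown and -1.02 (SE 0.55, edgeR adjusted p = 0.554) in the hnRNPU knockdown.

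Hnrnpab was at 238 CPM in Bloodlinc_shCTL, 189 in Bloodlinc_sh1 and 102 in Bloodlinc_sh2, at 423 in hnRNPU_shCTL, 132 in hnRNPU_sh1 and 288 in hnRNPU_sh2, and at 401 and 416 CPM in Empty_vector and Bloodlinc_vector. The control of the Bloodlinc knockdown was itself below one of the hnRNPU hairpin libraries. Its log2 fold changes were -0.71 (SE 0.57) and -1.01 (SE 0.57, edgeR adjusted p = 0.579). Hnrnpa3, an A/B type protein also linked to RNA transport, was at 19.9, 17.5 and 10.2 CPM in the Bloodlinc knockdown libraries and at 37.0, 33.1 and 35.5 CPM in hnRNPU_shCTL, hnRNPU_sh1 and hnRNPU_sh2, among the highest members in the latter comparison with -0.11 (SE 0.55). Under DESeq2's size factors or upper quartile scaling this value turned positive (0.04 and 0.08). The abundant Hnrnpa2b1 was at 804, 802 and 565 CPM in the Bloodlinc knockdown and at 573, 339 and 459 CPM in the hnRNPU knockdown. Hnrnpa0 and Hnrnpa1 had log2 fold changes of -0.23 and -0.05 in the Bloodlinc knockdown and both -0.82 in the hnRNPU knockdown. Hnrnpc, which binds U-rich tracts, Hnrnpd and Hnrnpdl, which bind AU-rich RNA, and Tardbp, the TDP-43 protein, had values of -0.26 to -0.02 in the first knockdown and -0.69 to -0.41 in the second.

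The F/H type, which binds G-rich tracts, had 4 of 4 members with both hairpins below the control in the hnRNPU knockdown and 1 of 4 in the Bloodlinc knockdown. Hnrnph1 was at 230.0 CPM in Bloodlinc_shCTL, 224 in Bloodlinc_sh1 and 135 in Bloodlinc_sh2, and at 284 CPM in hnRNPU_shCTL, 144 in hnRNPU_sh1 and 215 in hnRNPU_sh2. Each library with a hairpin was below its control, but the hairpins of a pair lay far apart. Hnrnph2 was at 144 CPM in Bloodlinc_shCTL, and its 2 Bloodlinc hairpins pointed opposite ways, with 154 and 74.6 CPM. Hnrnpf and Hnrnph3 had log2 fold changes of -0.08 and 0.02 in the Bloodlinc knockdown and -0.85 and -0.38 in the hnRNPU knockdown.

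The KH-domain hnRNPs bind C-rich RNA, and in red cell precursors Hnrnpk and Pcbp1 are known to hold back translation of a lipoxygenase message. Hnrnpk was at 599.8 CPM in Bloodlinc_shCTL, 526 in Bloodlinc_sh1 and 485 in Bloodlinc_sh2, and at 576 CPM in hnRNPU_shCTL, 338 in hnRNPU_sh1 and 402 in hnRNPU_sh2 (log2 fold changes -0.25 and -0.64). Pcbp1 was at 20.7 CPM in Bloodlinc_shCTL, 17.5 in Bloodlinc_sh1 and 35.7 in Bloodlinc_sh2, so its log2 fold change of 0.36 (SE 0.55) rests on hairpin 2 and was -0.24 without it. It was at 51.5, 34.3 and 55.9 CPM in the hnRNPU knockdown. Pcbp2 was the steadiest of the 3, at 46.0, 44.2 and 42.8 CPM in the Bloodlinc knockdown and 41.9, 43.7 and 43.7 CPM in the hnRNPU knockdown, with a log2 fold change of 0.06 (SE 0.54) in the latter.

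Ptbp1 and Ptbp2 are paralogs that bind pyrimidine tracts and repress exons, and Ptbp1 is known to suppress Ptbp2 by making it skip an exon. Ptbp1 was at 195 CPM in Bloodlinc_shCTL, 176 in Bloodlinc_sh1 and 117 in Bloodlinc_sh2, at 329 and 336 CPM in Empty_vector and Bloodlinc_vector, and at 311 CPM in hnRNPU_shCTL, 95.8 in hnRNPU_sh1 and 174 in hnRNPU_sh2. The hairpin libraries of both knockdowns were below their controls, and those of the hnRNPU knockdown were the lowest and the third lowest of the 8. Its log2 fold change was -1.20 (SE 0.56, unadjusted p = 0.0311, edgeR adjusted p = 0.44) in the hnRNPU knockdown and -0.41 (SE 0.56) in the Bloodlinc knockdown. Ptbp2 ran the other way, at 26.2 CPM in Bloodlinc_shCTL, 38.7 in Bloodlinc_sh1 and 35.6 in Bloodlinc_sh2, at 9.58 and 11.6 CPM in Empty_vector and Bloodlinc_vector, and at 8.63 CPM in hnRNPU_shCTL, 11.2 in hnRNPU_sh1 and 12.2 in hnRNPU_sh2. It was the highest member by log2 fold change in both knockdowns, with 0.50 (SE 0.59, edgeR adjusted p = 1) and 0.44 (SE 0.62, edgeR adjusted p = 0.863), on 19 and 31 counts in the hnRNPU hairpin libraries.

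Per kilobase, Ptbp1 exceeded Ptbp2 by 69.8-fold in hnRNPU_shCTL, 66.5-fold in Empty_vector and 55.9-fold in Bloodlinc_vector. The ratio was 14.4 in Bloodlinc_shCTL, 8.81 in Bloodlinc_sh1, 6.37 in Bloodlinc_sh2, 16.5 in hnRNPU_sh1 and 27.6 in hnRNPU_sh2. In each knockdown both hairpin libraries had a lower ratio than their control, and the step between the 2 control hairpin libraries was larger than either. Ptbp1 shares 18.3% of its 50-base words with other annotated transcripts, overlapping genes included, and Ptbp2 shares none. In the rest of the class, Hnrnpl, Hnrnpm, Hnrnpr and Syncrip, values ran from -0.40 to 0.01 in the Bloodlinc knockdown and from -0.67 to -0.46 in the hnRNPU knockdown. Syncrip, an hnRNP R relative that binds A-rich RNA, had Bloodlinc hairpins apart by more than 2-fold, at 135 and 62.3 CPM against 129.8 CPM in the control.

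All 10 SR proteins had fitted values below 0 in both knockdowns, with medians of -0.38 and -0.72, and none passed. Both hairpins were below the control for 9 of the 10 in each, the exception being Srsf4 in the Bloodlinc knockdown and Srsf5 in the hnRNPU knockdown. Srsf1 was at 1203 CPM in Bloodlinc_shCTL, 1019 in Bloodlinc_sh1 and 562 in Bloodlinc_sh2, and at 660.2 CPM in hnRNPU_shCTL, 399 in hnRNPU_sh1 and 431 in hnRNPU_sh2. Empty_vector and Bloodlinc_vector, at 539.6 and 534 CPM, were near Bloodlinc_sh2 and below the other 2 libraries of the Bloodlinc knockdown. Its log2 fold changes were -0.61 (SE 0.60, edgeR adjusted p = 1) and -0.67 (SE 0.60, edgeR adjusted p = 0.776), and the first was 0.26 when hnRNPU_shCTL stood in as control.

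Summed over the 10, SR proteins were at 2593, 2290 and 1648 CPM in Bloodlinc_shCTL, Bloodlinc_sh1 and Bloodlinc_sh2, and at 1879, 1106 and 1289 CPM in hnRNPU_shCTL, hnRNPU_sh1 and hnRNPU_sh2. Both knockdowns had the control highest. Of these sums, Srsf1 alone was 1203, 1019 and 562 CPM in the Bloodlinc knockdown and 660.2, 399 and 431 CPM in the hnRNPU knockdown. Srsf2, Srsf3, Srsf6, Srsf7, Srsf9, Srsf10 and Srsf11 had log2 fold changes of -0.60 to -0.16 in the first and -0.96 to -0.47 in the second. Srsf4, which also shares 39.5% of its 50-base words with other annotated transcripts, was at 17.02, 17.3 and 13.4 CPM in the Bloodlinc knockdown and at 59.3, 33.7 and 44.5 CPM in the hnRNPU knockdown. Its difference between the 2 controls was thus larger than either knockdown. Srsf5, one of the more abundant members, was at 407, 374 and 405 CPM in the Bloodlinc knockdown and at 253, 271 and 186 CPM in the hnRNPU knockdown.

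The SR-like regulators had no member that passed. Tra2a, which with its paralog Tra2b binds GAA-rich exonic enhancers, was at 205 CPM in Bloodlinc_shCTL, 161 in Bloodlinc_sh1 and 104 in Bloodlinc_sh2, and at 119 CPM in hnRNPU_shCTL, 65.6 in hnRNPU_sh1 and 76.8 in hnRNPU_sh2. Both pairs of hairpins were below their controls, and Empty_vector and Bloodlinc_vector were lower than every library of the Bloodlinc knockdown, at 80.5 and 72.2 CPM. Its log2 fold changes were -0.64 (SE 0.54) and -0.73 (SE 0.54), and with hnRNPU_shCTL as control the first was 0.16. Tra2b was steadier between controls (156, 174 and 158 CPM). Rbm39, with the values given above, had log2 fold changes of -0.23 (SE 0.61) and -0.04 (SE 0.61), and the latter became 0.12 with DESeq2's size factors and 0.15 with upper quartile scaling.

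Among the 8 snRNP, U2AF and spliceosome core genes, all 8 had both hairpin libraries below the control in the hnRNPU knockdown and 5 did in the Bloodlinc knockdown. Snrpb was the lowest member of all in the hnRNPU knockdown. It was at 129.8, 120.4 and 84.4 CPM in the Bloodlinc knockdown, at 120.5 and 130.3 CPM in Empty_vector and Bloodlinc_vector, and at 139 CPM in hnRNPU_shCTL, 42.0 in hnRNPU_sh1 and 64.6 in hnRNPU_sh2. Both hnRNPU hairpin libraries were below the other 6, and the 3 controls lay close together. Its log2 fold change was -1.37 (SE 0.53, unadjusted p = 0.0106, edgeR adjusted p = 0.307).

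The U2AF subunits read the end of the intron, U2af2 at the pyrimidine tract and U2af1 at the AG. U2af1 was at 20.2 CPM in Bloodlinc_shCTL, 18.5 in Bloodlinc_sh1 and 29.6 in Bloodlinc_sh2, and at 36.4 CPM in hnRNPU_shCTL and 18.9 CPM in both hnRNPU hairpin libraries. Its log2 fold change of 0.25 (SE 0.56) in the Bloodlinc knockdown rests on hairpin 2 and was -0.12 without it, and it was -0.95 (SE 0.56) in the hnRNPU knockdown. U2af2 was at 142.5, 129 and 109 CPM and at 234, 114 and 145 CPM in the same order. Sf3b1, the U2 snRNP subunit at the branch point, was at 936, 835 and 595 CPM in the Bloodlinc knockdown and at 522, 402 and 357 CPM in the hnRNPU knockdown. Snrpd1, Snrnp70 and Sf3a1 had values of -0.50, -0.14 and -0.22 in the first knockdown and -0.51, -0.58 and -0.85 in the second. Prpf8 was at 244 CPM in Bloodlinc_shCTL, 294 in Bloodlinc_sh1 and 278 in Bloodlinc_sh2, and at 381 CPM in hnRNPU_shCTL, 199 in hnRNPU_sh1 and 309 in hnRNPU_sh2. Its log2 fold change was 0.23 (SE 0.59) in the first and -0.58 (SE 0.57) in the second, and with hnRNPU_shCTL as control the first was -0.41.

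**Figure D4:**
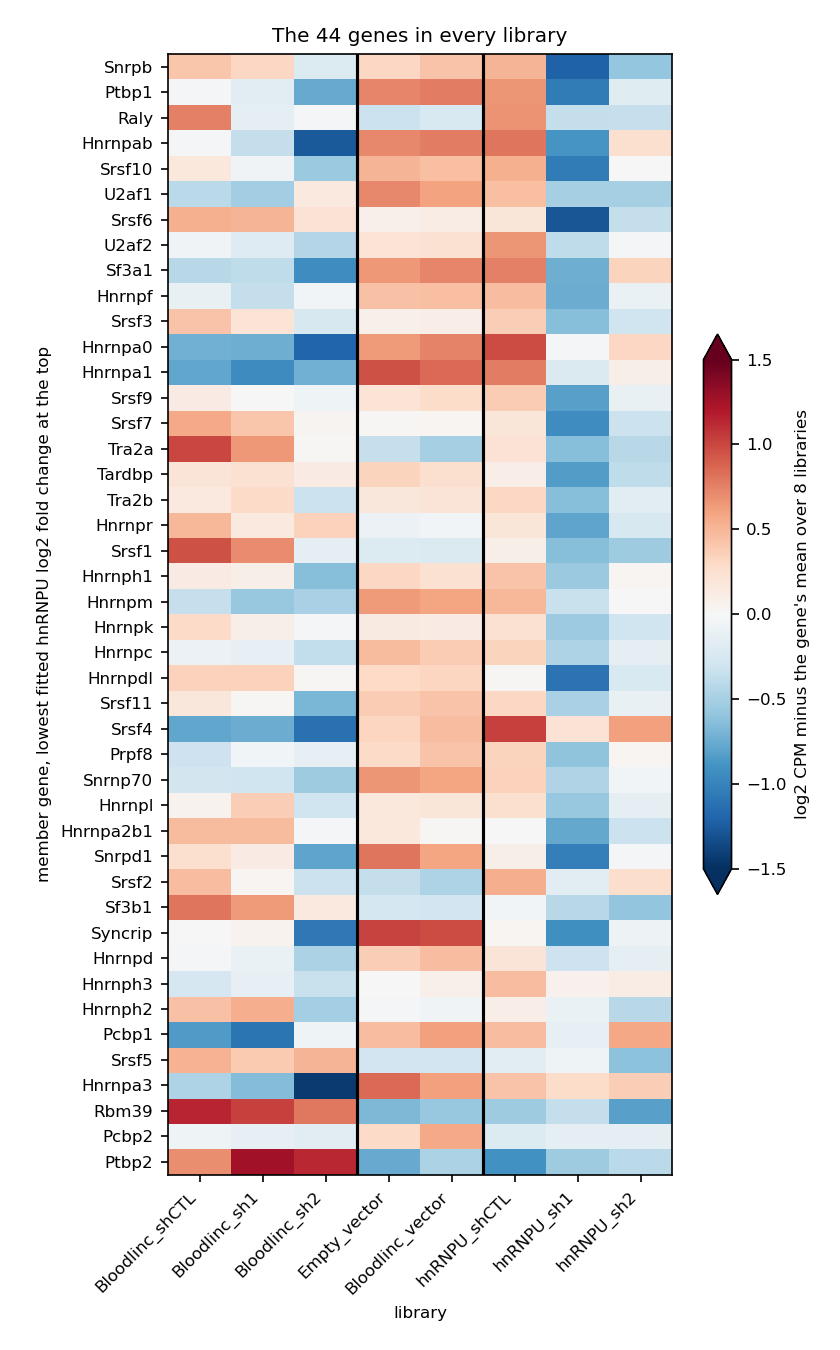
Level of each of the 44 genes in each of the 8 libraries, as log2 CPM minus the gene's mean over the libraries (red above, blue below, colour ending at 1.5), with black lines between the 3 arms. The hnRNPU_sh1 column is blue for most genes, and Rbm39 and Ptbp2 are red in the 3 libraries of the Bloodlinc knockdown only.

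Whether a member moved differently in the 2 knockdowns was put to edgeR as the difference of the 2 fold changes. None of the 44 passed (smallest edgeR adjusted p = 0.9999), against 0.326% of all genes tested, and none was under 0.05 without adjustment (4.11% of all genes were). The median of the difference, Bloodlinc minus hnRNPU, was 0.44 on the log2 scale over the members and 0.30 over all genes. This gap between members and all genes is not stable, since without Bloodlinc_sh1 the medians were 0.30 and 0.28, and without hnRNPU_sh1 0.26 and 0.30. With DESeq2's size factors they were 0.26 and 0.12. The largest difference of a member was that of U2af1, 1.20 (unadjusted p = 0.132), followed by Snrpb, 1.03 (unadjusted p = 0.187).

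The overexpression pair has 1 library an arm, so there is no test, and its intervals (95%, exact conditional binomial) cover counting error only. No member was 2-fold apart, against 0.371% of all genes 2-fold or more higher and 1.38% lower in Bloodlinc_vector. The member median was 0.02 on the log2 scale, with 19 of 44 below 0. The highest were Pcbp2, at 58.6 CPM in Empty_vector and 71.2 CPM in Bloodlinc_vector (0.28, interval 0.20 to 0.36), Ptbp2 (0.28, interval 0.09 to 0.47), Pcbp1 (0.16, interval 0.07 to 0.24) and Prpf8 (0.13, interval 0.10 to 0.17). The lowest were Hnrnpa3, at 49.3 and 42.2 CPM (-0.23, interval -0.32 to -0.14), Snrpd1 (-0.20, interval -0.28 to -0.13), Tra2a (-0.16, interval -0.23 to -0.09) and Hnrnpa2b1 (-0.13, interval -0.16 to -0.11). These 8 intervals do not include 0, which is in part built in, since the 8 are the extremes of this same difference. Members with small differences also had such intervals, as Hnrnpab (0.05, interval 0.02 to 0.08) and Hnrnpm (-0.05, interval -0.09 to -0.01) did. The median size of the difference over the members was 0.07 in this pair, against 0.17 between Empty_vector and hnRNPU_shCTL, 0.46 between the 2 control hairpin libraries and 0.58 between Empty_vector and Bloodlinc_shCTL. Single members went past 0.17, as Pcbp2, Ptbp2, Hnrnpa3 and Snrpd1 did. Of the 8 named here, Ptbp2, Pcbp1 and Prpf8 had a larger difference than the same gene had between Empty_vector and hnRNPU_shCTL (0.15, -0.002 and -0.04).

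**Figure D5:**
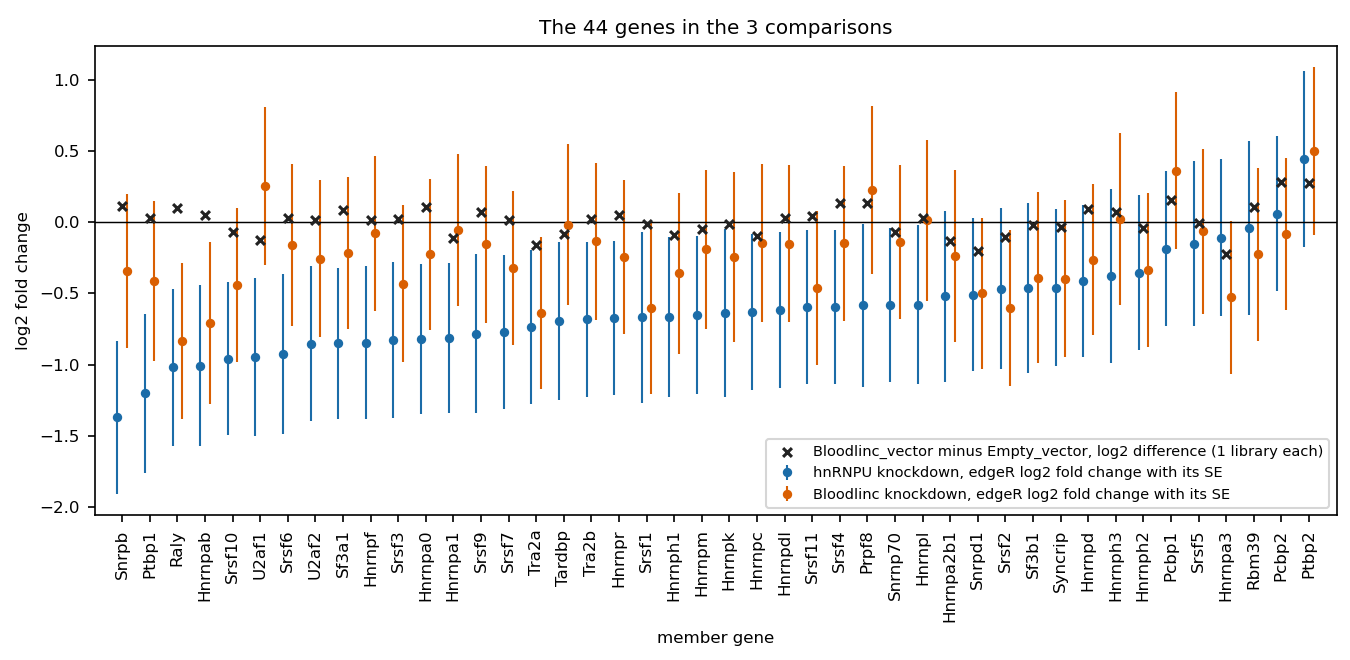
Fitted log2 fold change of each of the 44 genes with its SE (bars) in the hnRNPU knockdown (blue) and the Bloodlinc knockdown (orange), and the log2 difference of the overexpression pair (crosses, 1 library an arm), ordered by the hnRNPU value. Values run from -1.37 (Snrpb) to 0.44 (Ptbp2) in the hnRNPU knockdown, and the crosses lie between -0.23 and 0.28.

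Other genes of the splicing pathway were taken from lists by function, and 91 of 92 could be tested. None passed in either knockdown by edgeR or by DESeq2, and their medians were -0.16 and -0.58. Without adjustment, 1 and 14 of the 91 were under 0.05 by edgeR, against 3.99% and 9.89% of all genes. By DESeq2 1 and 7 were, against 2.62% and 8.08% of all genes. Of each list the lowest and highest gene of at least 5 CPM is named. Among 48 other snRNP and spliceosome proteins, both hairpins were below the control for 46 in the hnRNPU knockdown (42.3% of all genes). In the Bloodlinc knockdown they were for 24 (30.7% of all genes), and the medians were -0.81 and -0.18. Among genes within the members' range of control CPM, the shares below were 60.2% in the hnRNPU knockdown and 39.1% in the Bloodlinc knockdown. The lowest in the hnRNPU knockdown was Snrpa1, a U2 snRNP protein, at 61.04 CPM in hnRNPU_shCTL and 14.2 and 32.3 CPM with the hairpins (-1.37, SE 0.53, edgeR adjusted p = 0.307). The highest was Slu7, a factor for the second step of splicing, at 54.7 CPM against 140.1 and 79.2 CPM (1.0, SE 0.56). In the Bloodlinc knockdown the extremes were Snrpd2 (-0.67, SE 0.53) and Aqr (0.40, SE 0.55).

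Of 6 kinases that phosphorylate SR proteins, Clk3 was the lowest in both knockdowns (-0.76, SE 0.52, and -0.73, SE 0.53) and Srpk2 the highest (0.81, SE 0.60, and 1.42, SE 0.62). Srpk2 was at 10.8, 6.14 and 31.7 CPM in the Bloodlinc knockdown, where the hairpins pointed opposite ways, and at 13.8, 43.7 and 29.9 CPM in the hnRNPU knockdown. Of 32 other splicing regulators tested, Mbnl3, a muscleblind protein, was the lowest in the Bloodlinc knockdown, at 48.5 CPM in the control and 22.5 and 18.9 CPM with the hairpins (-1.23, SE 0.52, edgeR adjusted p = 0.96), and Ddx17, an RNA helicase, the highest (0.52, SE 0.58). In the hnRNPU knockdown they were Rnps1 (-1.09, SE 0.53) and Mbnl2 (1.34, SE 0.58). Of 5 genes of the exon junction complex, Casc3 and Magohb were the ends of the order in the Bloodlinc knockdown (-0.04, SE 0.57, and 0.23, SE 0.67), and Magoh and Magohb in the hnRNPU knockdown (-0.84, SE 0.55, and -0.24, SE 0.71).

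Some members are hard to count apart from other loci. Of their 50-base words, Hnrnpf shares 61.9%, Srsf4 39.5%, Pcbp2 31.5%, Hnrnpa1 28.2% and Hnrnpa3 27.1% with other annotated transcripts on either strand, overlapping genes included. For Hnrnpa1 and Hnrnpa3 the sharing loci included 20 and 42 pseudogenes, so their levels are uncertain. Hnrnpab shares 23.8%. Genes on the opposite strand overlap 43.0% of the exon length of Srsf4, 32.7% of Pcbp2, 29.1% of Hnrnpab, 26.5% of Hnrnpf, 25.3% of Srsf2, 23.3% of Tardbp and 20.7% of Ptbp1. The strand setting of the counting is not given in the sources used here, so that reads of the partner gene may be in the values of these 7 members. Snrpb shares 0.049%, Raly 2.86%, Rbm39 0.039%, and Tra2a and Prpf8 share none. Across the 44 genes the GC content of the longest transcript had a rank correlation of 0.53 with the difference between the 2 control hairpin libraries, against 0.24 over all genes with a value. With the fitted log2 fold change the members' correlation was -0.34 in the hnRNPU knockdown (-0.0496 over all genes with a value). In the Bloodlinc knockdown it was 0.15 (0.0965 over all genes with a value). The part of GC content in the members' lower values was not tested. These are descriptions across genes of the same libraries, with the control libraries shared between the measures, and genes are not independent replicates.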

How the data were processed

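After removal of ribosomal RNA, 8 libraries were sequenced on a HiSeq2000 with dUTP strand marking, per the labels' protocols. The authors deposited raw counts per gene, made with TopHat2 2.0.11 on mm9 and HTSeq per the submitters' processing notes; the HTSeq version, annotation release and strand setting are not given in the sources used here. The files hold 37620 gene identifiers and 5 summary entries, which stayed out of library sizes. Symbols, exon lengths and positions came from GENCODE M21 on GRCm38, in which 87.5% of identifiers had an entry.

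The members and the other gene lists were chosen with earlier results of these data known. A single fit in edgeR 4.0.16 (R 4.3.3) held all 8 libraries in 6 groups, with TMM scaling, filterByExpr and quasi-likelihood F-tests, and a threshold of 0.05 on Benjamini-Hochberg adjusted p over 15355 genes. It had 2 residual degrees of freedom, from the hairpin pairs, so each control library is assumed to vary like them. The prior had 396.7 degrees of freedom, so a gene's error came mostly from the variance shared across genes. The spread of its own hairpin pair counted for little. Levels are CPM on TMM-scaled library sizes, with a prior count of 2 for log2 differences of single libraries. The genes given with full statistics are, per comparison, the 4 lowest and 4 highest members by log2 fold change and, per pathway list with no call, the lowest and highest of at least 5 CPM. The fit was also run on counts simulated from a common mean profile with planted changes. Those counts lack the differences between arms seen here, so they cannot show how the fit performs on these data. Alternatives were DESeq2 1.42.0, other scalings, no filter, other control libraries, 3 libraries alone, thinning to 2612916 counts and each hairpin library left out. Another left out identifiers without an annotation entry and the mitochondrial ribosomal RNAs. Leaving out both hnRNPU hairpin libraries and the comparison with genes of like CPM were added after the data were seen. Sharing of 50-base words was computed over annotated transcripts.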

Additional observations from a re-analysis of the deposited data

How the results depend on the processing

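No paired analysis was possible because each knockdown has 1 control library, so that the groups compared share fewer than 2 numbers, and a hairpin's number names a different hairpin for each target. No member passed under any alternative except against the other control hairpin library, where 4 did in the Bloodlinc knockdown (Hnrnpa0 -1.92, Hnrnpa1 -1.59, Srsf4 -1.95 and Ptbp2 2.10) and 2 in the hnRNPU knockdown (Tra2a -1.53 and Rbm39 -1.71). The member medians of both knockdowns stayed below 0 in every alternative run. The hnRNPU hairpin libraries hold 8242 and 15305 counts of the members, against 190179 to 371277 in the others.

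Genes that passed in the Bloodlinc knockdown numbered 19, against 5 with DESeq2, 1043 against the other control hairpin library, 0 with the 3 controls pooled, with its 3 libraries alone, thinned or without both hnRNPU hairpin libraries, and 0 to 63 with a hairpin library left out. In the hnRNPU knockdown they numbered 135, against 2340, 7 with the 3 controls pooled, 7 thinned and 7 (without hnRNPU_sh1) to 121 with a hairpin library left out. For the difference of the knockdowns they numbered 50, against 22 with DESeq2, 1 thinned and 6 to 37 with a hairpin library left out. In the overexpression pair 269 genes were past 2-fold, against 1037 with no filter, 615 with a prior count of 0.5 and 2505 with the 3 controls pooled. Thinning and leaving out lower the counts or samples by construction, and otherwise the cause was not tested.

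The log2 values of some named genes changed sign, in no case past the threshold. Against the other control hairpin library they were 0.16 for Tra2a, 0.26 for Srsf1, -0.41 for Prpf8, -0.60 for U2af1 and -0.96 for Pcbp1 in the Bloodlinc knockdown, and 0.78 for Hnrnpa3, -0.074 for Pcbp2 and -1.16 for Ptbp2 in the hnRNPU knockdown. With the 3 controls pooled they were -0.21 for Prpf8, -0.48 for U2af1, -0.63 for Pcbp1 and -0.045 for Aqr in the Bloodlinc knockdown, -0.16 for Pcbp2 and -0.33 for Ptbp2 in the hnRNPU knockdown, and 0.35 for Hnrnpa3, 0.22 for Snrpd1 and -0.16 for Ptbp2 in the overexpression pair. Thinned, they were 0.19 for Casc3 in the Bloodlinc knockdown, 0.073 for Hnrnpa3, 0.17 for Rbm39 and 0.13 for Magohb in the hnRNPU knockdown, and 0.00084 for Snrpd1 in the overexpression pair. In the hnRNPU knockdown, Hnrnpa3 and Rbm39 were at 0.040 and 0.12 with DESeq2 or its size factors, 0.078 and 0.15 with upper quartile scaling, and 0.057 and 0.13 with the 3 libraries alone. With a hairpin library left out, the Bloodlinc knockdown ranged from -0.12 to 0.58 for U2af1, -0.24 to 0.81 for Pcbp1, -0.82 to 1.58 for Srpk2, -0.040 to 0.95 for Ddx17, -0.17 to 0.10 for Casc3 and -0.036 to 0.48 for Magohb. The hnRNPU knockdown ranged from -0.29 to 0.17 for Rbm39 and from -1.06 to 0.22 for Magohb.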
